A study of Mus musculus with 9 samples.

Results

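The 10 genes described here are the interleukin-1 family and inflammasome genes Il1a, Il1b, Il18, Il1rn, Il18bp, Nlrp3, Pycard, Casp1, Casp4 and Gsdmd. They were taken by symbol, each as 1 row, from the 55401 Ensembl identifiers of an RNA-seq table of RAW264.7 cells, a mouse macrophage line from a tumour induced by the Abelson murine leukemia virus. The cells were wild type and were treated for 24 h with the vehicle DMSO (the DMSO group), with DMSO and lipopolysaccharide, a bacterial cell wall component that induces inflammatory activation (the LPS group), or with lipopolysaccharide and skatole, an indole compound (the LPS + Ska group). Each group had 3 columns, numbered as replicates 5, 6 and 7, and the labels of the LPS + Ska group do not name DMSO. The time is that of the labels, and the results text of the study gives the same. Its methods name a longer treatment for the sequenced cells, so the duration is uncertain. The labels give no dose for this experiment, and nothing states whether the replicates of a group were separate cultures, so the tests measure the spread between columns, which may be technical. All cells are of 1 line, which limits them as a model of macrophages in tissue.

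IL-1α and IL-1β act on the same receptor, whose antagonist is the product of Il1rn, while IL-18 has a receptor of its own and is bound by the protein from Il18bp. In macrophages, pro-IL-1β and pro-IL-18 are held in the cytosol until an inflammasome forms, in which a sensor such as NLRP3 recruits the adaptor ASC, the product of Pycard, and caspase-1. Caspase-1 then cuts both cytokines and gasdermin D, whose fragment opens pores in the membrane. Caspase-11, encoded by Casp4 in the mouse, binds cytosolic lipopolysaccharide and cuts gasdermin D as well. Messenger RNA levels show the supply of these parts and not the cutting of the proteins.

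Values are TPM, a measure of transcript abundance scaled to transcript length and to the total of each column. Changes are log2 fold changes of TPM + 1 from limma, tested over 12819 genes with a mean of at least 1 TPM. A gene was called at a Benjamini-Hochberg adjusted p under 0.05 together with a fold change above 1.5 or below 0.67, and "rose" and "fell" are used only for called genes. The limits lie at 0.585 and -0.578 on the log2 scale. In the LPS and LPS + Ska groups, replicate 5 equalled the mean of replicates 6 and 7, within 1e-05 TPM, in 17950 of 17950 and 17658 of 17658 genes above 0 in both of these replicates, against 10 of 16674 in the DMSO group. No gene thus has more than 2 independent values in either of those groups, and their 3 columns do not vary like 3 samples. The main fit still took all 3 columns as replicates, so its standard errors, intervals and p-values rest on tied columns. An alternative fit used 2 values per gene recovered from these columns, as described under the processing. The number of reads behind a value is unknown.

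Column totals lay between 999895 and 1000145 TPM, and 12498 to 13012 genes reached 1 TPM in a column. All 7 macrophage markers were present, with a summed level of 11111 to 12067 TPM in the DMSO group, 5855 to 6179 in the LPS group and 11490 to 11668 in the LPS + Ska group, most of it from Lyz2, the macrophage lysozyme. Not all markers shared this order. The receptor gene Csf1r had group means of 835, 522 and 467 TPM in DMSO, LPS and LPS + Ska. For the transcription factor gene Spi1 they were 408, 233 and 230.2 TPM. Adgre1 and Cd68 were likewise lowest in LPS + Ska. Itgam, at 66.0, 61.2 and 80.7 TPM, and Ptprc, at 115, 101 and 113 TPM, were lowest in LPS. Of 17 markers of T cells, B cells, neutrophils, fibroblasts, chondrocytes and epithelium, 11 were listed at 0 in all columns, among them the T cell genes Cd3e, Cd3g and Cd3d, and no other marker exceeded 3.07 TPM. The 17 markers summed to 0.729 to 3.62 TPM in the DMSO, 0.582 to 2.02 in the LPS and 1.14 to 3.31 in the LPS + Ska columns. As a check of the labels, Tnf, Ptgs2 and Acod1, which are known to respond to lipopolysaccharide, had means of 69.6, 12.5 and 6.41 TPM in DMSO and 210.4, 158 and 216 in LPS. Nos2 and Il6 were listed at 0 in every DMSO column and had means of 37.5 and 4.35 TPM in LPS. In LPS + Ska the means of Tnf, Ptgs2, Acod1, Nos2 and Il6 were 207, 203, 178, 28.5 and 0.259 TPM. Of these 5 genes, 1 was called from LPS to LPS + Ska, where 9.49% of all tested genes were. This was Il6, at a lower level, and Il6 reached the mean of 1 TPM needed for testing only through the LPS columns. In these bulk samples, fewer cells making a transcript and less of it per cell cannot be told apart.

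Il1a and Il1b lie on the same strand of mouse chromosome 2, and Casp1 and Casp4 are neighbours on chromosome 9. The bases before the RefSeq transcript start (build GRCm38.p6) are shown for Il1a and Il1b, which fell most with skatole among the 10 genes, for Il1rn, the antagonist, which was not called lower, and for Casp4, which rose with LPS. They are written 5′ to 3′ on the strand of the gene, and capitals mark matches to the motifs that were searched. Position -1 is the base before the RefSeq start. The bases of the Il1rn and Casp4 windows that lie inside the annotated genes are left out, so these stretches stop short of -1.
Il1a, chr2:129309973-129310222, minus strand: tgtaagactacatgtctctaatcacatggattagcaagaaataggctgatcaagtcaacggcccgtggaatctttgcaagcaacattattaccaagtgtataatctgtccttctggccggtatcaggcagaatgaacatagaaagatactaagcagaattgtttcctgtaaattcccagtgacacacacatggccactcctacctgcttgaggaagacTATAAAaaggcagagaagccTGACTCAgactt
Il1b, chr2:129371140-129371389, minus strand: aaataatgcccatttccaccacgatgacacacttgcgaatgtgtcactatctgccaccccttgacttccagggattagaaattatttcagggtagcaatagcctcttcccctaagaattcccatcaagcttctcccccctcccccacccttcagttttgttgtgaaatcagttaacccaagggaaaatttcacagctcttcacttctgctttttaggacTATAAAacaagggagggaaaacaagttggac
Il1rn, chr2:24336610-24336852, plus strand: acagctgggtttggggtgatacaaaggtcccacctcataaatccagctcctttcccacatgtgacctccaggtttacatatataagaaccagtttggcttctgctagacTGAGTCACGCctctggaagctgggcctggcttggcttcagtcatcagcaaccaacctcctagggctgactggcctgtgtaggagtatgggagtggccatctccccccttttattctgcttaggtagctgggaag
Casp4, chr9:5308599-5308827, plus strand: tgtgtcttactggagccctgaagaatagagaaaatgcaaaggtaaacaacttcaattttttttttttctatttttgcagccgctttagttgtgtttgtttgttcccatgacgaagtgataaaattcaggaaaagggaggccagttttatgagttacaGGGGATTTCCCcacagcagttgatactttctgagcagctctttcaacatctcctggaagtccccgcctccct

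The TATA box letters TATAAA, read on the strand of the gene, occurred at -32 to -27 in Il1a and at -31 to -26 in Il1b, and in 7.59% of the windows of 250 bases of 32841 RefSeq starts. Of the 9 members with a window in the table, these were the only ones with this match. Some members had several RefSeq starts, and 13 windows were searched for the 9 members, while the shares given are per window. The AP-1 letters TGANTCA, searched on both strands, occurred in Il1a at -12 to -6 and in Il1rn at -141 to -135, against 6.75% of all windows. In Il1rn the match overlapped GCGTG at -136 to -132 on the opposite strand, the core letters bound by the aryl hydrocarbon receptor, which 28.2% of windows held. The NF-κB consensus, searched on both strands and held by 3.9% of windows, occurred in overlapping matches at -93 to -83 in the Casp4 window shown. Counted from another RefSeq start of Casp4, the same letters lay at -104 to -94. The consensus also occurred once in the more upstream Nlrp3 window at -186 to -177. The windows of Casp1, Il18, Il18bp and Pycard held none of the 4 motifs, and a match is a string of letters and not a measured site.

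The agonist cytokines came up with LPS and were lower again when skatole was present. In GENCODE release M21, Il1a (ENSMUSG00000027399) spans chr2:129299610-129309972 and Il1b (ENSMUSG00000027398) spans chr2:129364570-129371139, both on the minus strand and 54597 bases apart. Il1a stood at 0, 0.258 and 0 TPM in the DMSO columns (replicates 5, 6 and 7), at 18.1, 20.9 and 15.2 in the LPS columns and at 3.94, 4.78 and 3.10 in the LPS + Ska columns. The 3 groups did not overlap, and the gene was close to undetected without LPS. Il1a rose by 4.13 ± 0.17 (SE) with LPS (adjusted p = 1.74e-07) and fell by 1.95 ± 0.17 from LPS to LPS + Ska (adjusted p = 0.000131). With both agents its mean stood at 3.94 ± 0.840 TPM (SD over the 3 tied columns), which left 21.5% of the increase over DMSO seen with LPS alone.

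Il1b showed the same order of groups at somewhat higher levels. It stood at 0, 0.0961 and 0.369 TPM with DMSO, at 28.1, 32.3 and 23.9 with LPS and at 10.2, 13.7 and 6.71 with LPS + Ska. Again no LPS + Ska column reached an LPS column, although LPS + Ska replicate 6 was more than double replicate 7. These columns are tied, and the values recovered from them lay closer together, at 11.99 and 8.47 TPM. The gene rose by 4.66 ± 0.23 with LPS (adjusted p = 4.16e-07) and fell by 1.41 ± 0.23 with skatole (adjusted p = 0.00235), and 36.1% of the LPS increase was left. Because both genes were near 0 in DMSO, their size against DMSO depends on the pseudocount, and with 0.1 in place of 1 the LPS changes were 6.88 for Il1a and 7.06 for Il1b. Adding 0.1 also brought the adjusted p of Il1b from LPS to LPS + Ska to 0.0493, its highest over the 19 alternatives.

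Il18 (ENSMUSG00000039217, chr9:50554827-50581840, plus strand) was expressed before stimulation, unlike the Il1 genes. Its TPM was 19.8, 29.5 and 23.3 with DMSO, 101, 105 and 95.7 with LPS and 53.1, 55.8 and 50.4 with LPS + Ska. The groups stood in 3 separate ranges. Il18 rose by 2.03 ± 0.12 with LPS (adjusted p = 1.31e-06) and fell by 0.91 ± 0.12 with skatole (adjusted p = 0.000938). Against DMSO it was still higher by 1.12 ± 0.12 (adjusted p = 4.13e-05), and 37.8% of the LPS increase was left. All 3 calls of Il18 held in 19 of 19 alternatives.

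The natural inhibitors of these cytokines were not called lower with skatole, and whether their change differed from that of the cytokines was not tested. Il1rn (ENSMUSG00000026981, chr2:24336853-24351494, plus strand), the receptor antagonist, stood at 11.2, 11.5 and 26.1 TPM with DMSO, at 108, 105 and 111 with LPS and at 130, 138 and 122 with LPS + Ska. It rose by 2.76 ± 0.26 with LPS (adjusted p = 1.83e-05) and stood 3.03 ± 0.26 above DMSO with LPS + Ska (adjusted p = 8.18e-06). The LPS + Ska columns were all above the LPS columns, by 0.27 on the log2 scale (95% interval -0.31 to 0.84, adjusted p = 0.461), which is inside the fold change limit. This interval carries the spread of DMSO replicate 7, which was more than double the other two DMSO columns. That column also had the highest Tnf of the group, 103 TPM against 53.1 and 52.8, and its part in the Il1rn result was not tested beyond fits without it. Without DMSO replicate 7 the adjusted p of the same 0.27 was 0.0124, the LPS change was 3.14 ± 0.07, and Il1rn was still not called between LPS and LPS + Ska. Fitting these 2 groups alone gave 0.27 (95% interval 0.13 to 0.41, adjusted p = 0.0163), again not called. The spread in that fit came only from tied columns.

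Il18bp (ENSMUSG00000070427, chr7:102014885-102018690, minus strand), the soluble binder of IL-18, was low in every column. It stood at 2.12, 2.46 and 2.06 TPM with DMSO, at 2.14, 2.44 and 1.83 with LPS and at 1.95, 1.82 and 2.07 with LPS + Ska. The 3 groups overlapped. The changes were -0.04 with LPS (95% interval -0.34 to 0.26), -0.09 from LPS to LPS + Ska (-0.39 to 0.21) and -0.12 from DMSO to LPS + Ska (-0.42 to 0.18), with adjusted p of 0.819, 0.661 and 0.437.

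**Figure D1:**
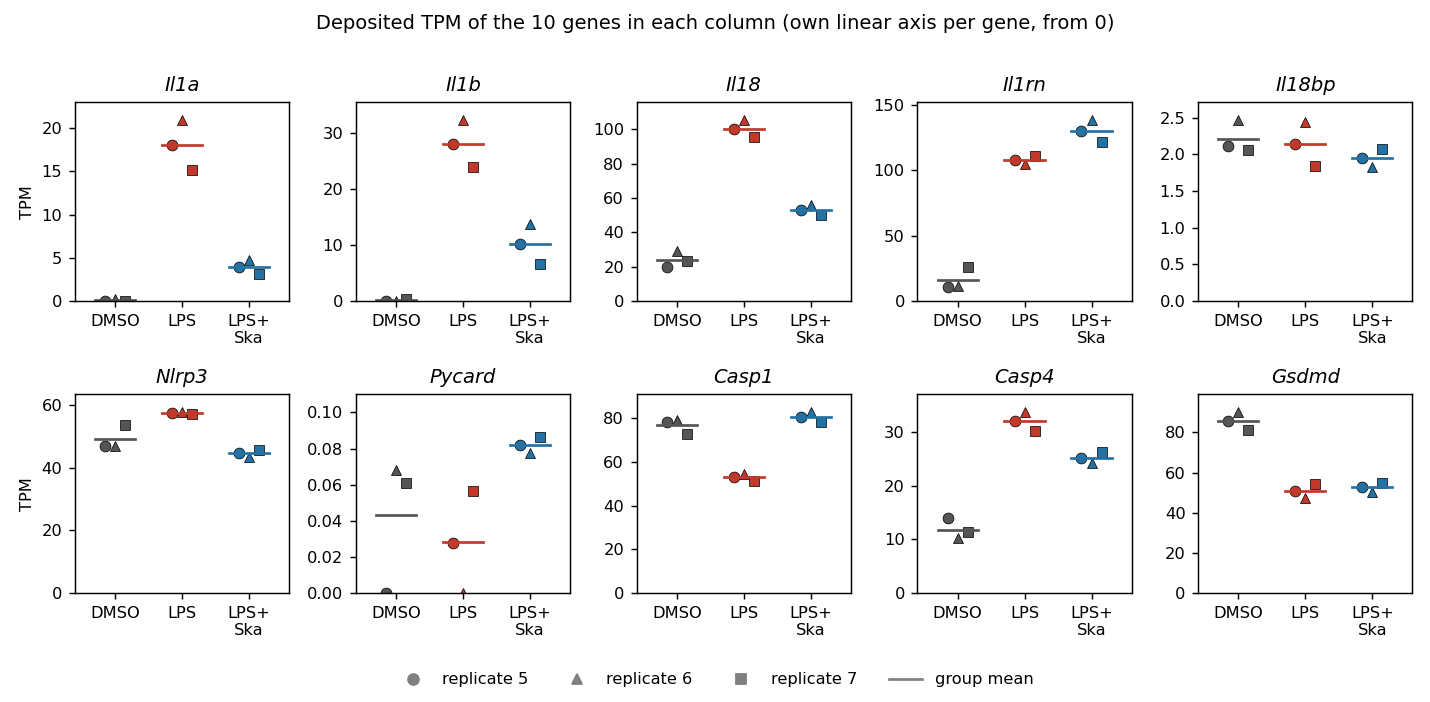
TPM of each of the 10 genes in the 9 columns, with the symbols for replicates 5, 6 and 7 and a line at the group mean. Each panel has its own linear axis from 0. Il1a, Il1b and Il18 are highest in LPS and lie between DMSO and LPS in LPS + Ska, Il1rn is highest in LPS + Ska, and Pycard stays under 0.1 TPM.

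Ratios within a column put agonist and antagonist side by side, and are given with no test. The TPM of Il1rn over the sum of Il1a and Il1b was 2.33, 1.97 and 2.83 in the LPS columns and 9.18, 7.47 and 12.4 in the LPS + Ska columns, so the columns of the 2 groups did not overlap. In DMSO it was 32.4 and 70.8 in replicates 6 and 7, over a denominator of less than 0.4 TPM, and undefined in replicate 5, where both agonists were listed at 0. Il18 over Il18bp was 9.35 to 11.97 in DMSO, 43.3 to 52.2 in LPS and 24.4 to 30.6 in LPS + Ska. Within the agonists the balance also moved, since Il1b over Il1a was 1.54 to 1.57 in LPS and 2.16 to 2.87 in LPS + Ska. Il1a, Il1b and Il18 together made up 7.70% to 11.1% of the summed TPM of the 10 genes in DMSO, 30.6% to 34.6% in LPS and 15.5% to 17.9% in LPS + Ska.

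**Figure D2:**
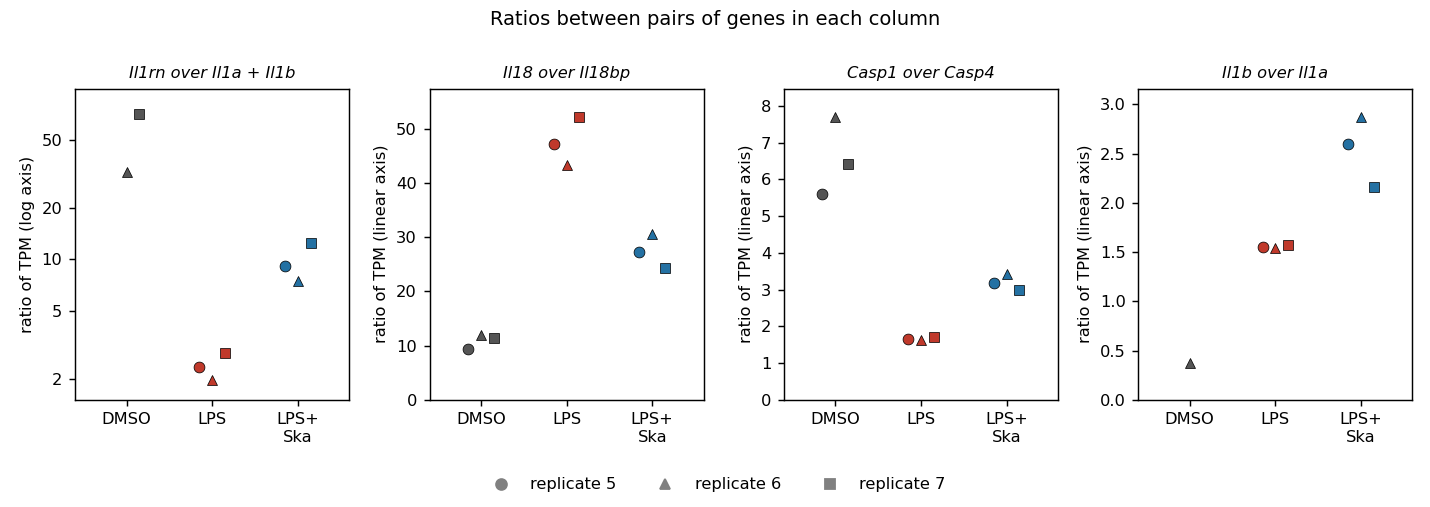
Ratio of TPM between genes in each column, on a log axis for Il1rn over Il1a + Il1b and on linear axes from 0 for the others. DMSO columns whose denominator was 0 are left out. For Il1rn over the agonists the LPS + Ska columns lie at 7.47 to 12.4, between the LPS columns at 1.97 to 2.83 and the DMSO columns at 32.4 and 70.8.

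Of the inflammasome core, the sensor was well expressed and differed little between groups, and the adaptor was almost absent. Nlrp3 (ENSMUSG00000032691, chr11:59541568-59566956, plus strand) stood at 46.9, 47.0 and 53.4 TPM with DMSO, at 57.4, 57.6 and 57.1 with LPS and at 44.6, 43.4 and 45.7 with LPS + Ska. The 3 groups did not overlap, but the differences were small. They were 0.22 ± 0.06 with LPS (adjusted p = 0.0138), -0.36 ± 0.06 from LPS to LPS + Ska (adjusted p = 0.00388) and -0.13 ± 0.06 from DMSO to LPS + Ska (adjusted p = 0.0951). All were inside the fold change limits, so Nlrp3 was not called, and the last of them turned to 0.06 when columns were scaled by their median ratio. Without LPS replicate 5 the adjusted p with LPS was 0.0514.

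Pycard (ENSMUSG00000030793, chr7:127989708-127993867, minus strand) was at 0, 0.0683 and 0.0607 TPM with DMSO, 0.0279, 0 and 0.0566 with LPS and 0.0820, 0.0774 and 0.0866 with LPS + Ska. It was the only one of the 10 genes under the mean of 1 TPM needed for testing. RAW264.7 cells are known to lack ASC, and the values of all 9 columns were below 0.1 TPM. The exons of Pycard share 485 bases with Gm45205 on the opposite strand, so that reads of the 2 genes cannot be told apart at this level unless strand was used in the counting, which is not stated in the sources used here.

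Of the 2 inflammatory caspases, Casp4 rose with LPS and Casp1 was called only between LPS and LPS + Ska. Casp1 (ENSMUSG00000025888, chr9:5298517-5307265) and Casp4 (ENSMUSG00000033538, chr9:5308828-5336783) lie on the plus strand with 1562 bases between them. Casp1 stood at 78.0, 79.0 and 72.6 TPM with DMSO, 53.0, 54.6 and 51.4 with LPS and 80.3, 82.6 and 78.1 with LPS + Ska. LPS alone gave the low values, and the LPS + Ska columns overlapped DMSO. The change with LPS was -0.52 ± 0.06 (adjusted p = 4.72e-05), inside the fold change limit and so not called. Casp1 rose by 0.59 ± 0.06 from LPS to LPS + Ska (adjusted p = 0.000171), close to the limit, and the difference between LPS + Ska and DMSO was 0.07 (95% interval -0.06 to 0.20, adjusted p = 0.307). With columns scaled by their median ratio, the difference from DMSO was 0.26 (95% interval 0.13 to 0.39, adjusted p = 0.00329), still not called. The call from LPS to LPS + Ska was lost by size, at 0.57 each time, when LPS replicate 7 or LPS + Ska replicate 6 was left out.

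Casp4 stood at 13.9, 10.3 and 11.3 TPM with DMSO, 31.9, 33.6 and 30.2 with LPS and 25.2, 24.2 and 26.2 with LPS + Ska. The 3 groups did not overlap. Casp4 rose by 1.37 ± 0.10 with LPS (adjusted p = 6e-06), and LPS + Ska was 1.04 ± 0.10 above DMSO (adjusted p = 2.58e-05). From LPS to LPS + Ska the change was -0.33 ± 0.10 (adjusted p = 0.0421), inside the fold change limit, and the adjusted p lay between 0.00986 and 0.161 over the alternatives. With the values recovered from the tied columns, this adjusted p was 0.131. The TPM of Casp1 over Casp4 was 5.60 to 7.70 in DMSO, 1.62 to 1.70 in LPS and 2.98 to 3.42 in LPS + Ska, given with no test.

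Gsdmd (ENSMUSG00000022575, chr15:75862327-75867408, plus strand), which encodes the pore-forming substrate of both caspases, was lower with LPS whether or not skatole was present. It stood at 85.4, 89.9 and 81.2 TPM with DMSO, 50.9, 47.4 and 54.3 with LPS and 52.6, 50.2 and 55.0 with LPS + Ska. The LPS and LPS + Ska columns overlapped, and all lay below the DMSO columns. Gsdmd fell by 0.74 ± 0.07 with LPS (adjusted p = 2.04e-05) and by 0.69 ± 0.07 from DMSO to LPS + Ska (adjusted p = 2.55e-05), while LPS and LPS + Ska differed by 0.05 (95% interval -0.11 to 0.21, adjusted p = 0.632). The change from DMSO to LPS + Ska was -0.50 with columns scaled by their median ratio, and was then not called.

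**Figure D3:**
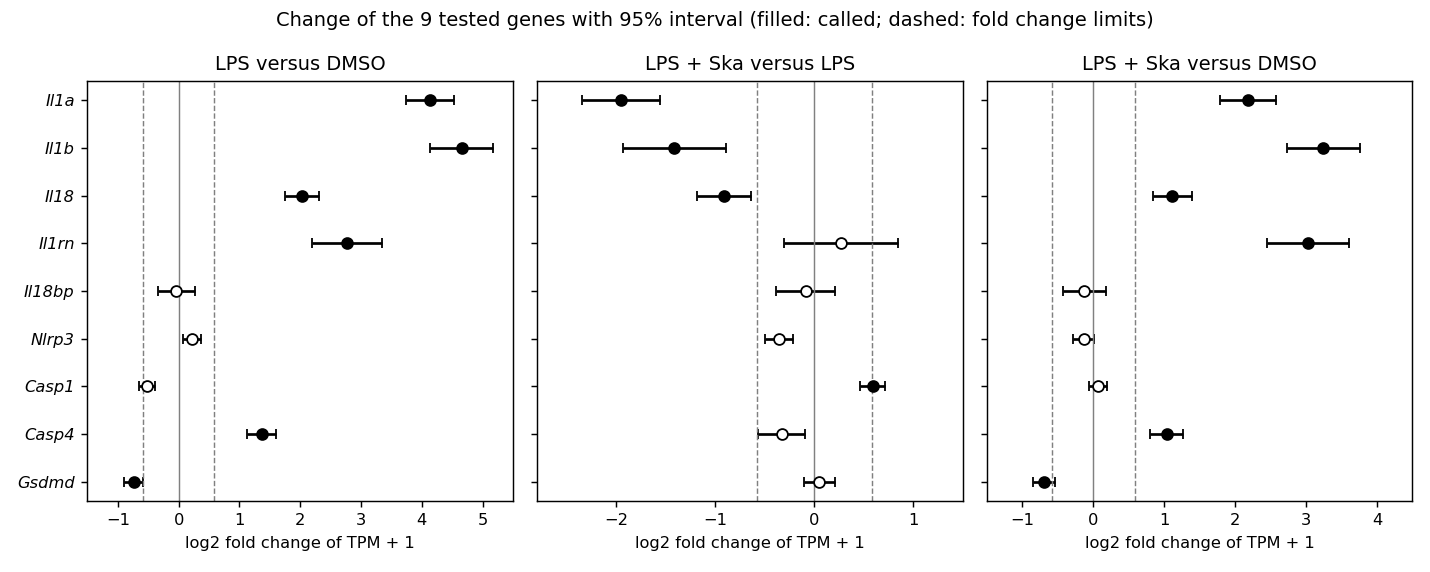
Log2 fold change of TPM + 1 with its 95% interval for the 9 tested genes in the 3 comparisons, filled where called, with dashed lines at the fold change limits. With LPS + Ska against LPS, Il1a, Il1b and Il18 are filled on the left and Casp1 is filled just past the right limit.

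Counted over the group, 6 of the 10 genes, 9 of them tested, were called with LPS against DMSO, where 32.7% of all tested genes were called. Il1a, Il1b, Il18, Il1rn and Casp4 rose and Gsdmd fell. From LPS to LPS + Ska, 4 of the 10 genes were called against a background of 9.49%, with Il1a, Il1b and Il18 lower and Casp1 higher. From DMSO to LPS + Ska, 6 of the 10 genes were called against 36.7%, with Il1a, Il1b, Il18, Il1rn and Casp4 higher and Gsdmd lower. Any 2 of these comparisons share the columns of 1 group. The median log2 change of the 9 tested genes was 1.37, -0.33 and 1.04 in the 3 comparisons, beside -0.07, -0.10 and -0.18 over all tested genes. The 10 genes were chosen with earlier results of these data known. Il1a and Il1b also passed the filter on low values only through the LPS groups, so these counts and medians are a description. Without these 2 genes, 4, 2 and 4 of the other 7 tested genes were called in the 3 comparisons, and their median changes were 0.22, -0.09 and 0.07. From LPS to LPS + Ska, 35.3% of all called genes were higher, and 52.6% with columns scaled by their median ratio, while the 4 member calls held under that scaling in the same directions. With LPS the higher share was 38.9%, and 49.0% after that scaling, and from DMSO to LPS + Ska it was 31.0% and 49.8%. The scaling moved the median change of all genes from -0.18 to -0.0016 in the last comparison. The 4 member calls from LPS to LPS + Ska also held in the limma fit on the 2 values recovered from the tied columns. Their adjusted p was then 0.00128 for Il1a, 0.00577 for Il1b, 0.00792 for Il18 and 0.00237 for Casp1, each higher than in the main fit.

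Of 49 further genes of the pathway, 29 were tested. With LPS, 2 rose and 6 fell, from LPS to LPS + Ska 2 rose and 0 fell, and from DMSO to LPS + Ska 0 rose and 6 fell, so that 8, 2 and 6 of the 29 tested genes were called. These are 27.6%, 6.9% and 20.7%, none above the 32.7%, 9.49% and 36.7% of all tested genes. The 6 of the last comparison were Irak1 at -1.15, Pstpip1 at -0.77, Nlrp10 at -0.74, Nlrp1b at -0.71, Sigirr at -0.69 and Kcnk6 at -0.62, of which Nlrp10, Nlrp1b, Sigirr and Kcnk6 lost the call under median-ratio scaling at -0.57, -0.54, -0.52 and -0.43. Kcnk6 also lost it without DMSO replicate 6 or 7, at -0.58 and -0.47, and without mitochondrial-genome and ribosomal protein genes, at -0.57. The median change of the 29 tested genes was -0.25, -0.04 and -0.20.

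Among the 10 receptor genes of the family, 4 were tested. Both IL-1 receptor genes, Il1r1 and the decoy Il1r2, were listed at 0 in all columns. Il1rap, the shared accessory chain, rose with LPS by 0.88 ± 0.13 (adjusted p = 0.000306), from 5.22 ± 0.940 TPM in DMSO to 10.4 ± 0.423 in LPS (SD over 3 columns, tied outside DMSO), and was 8.01 ± 0.918 in LPS + Ska, a change of -0.34 that was not called (adjusted p = 0.0767). Sigirr, an inhibitory member of the receptor family, fell with LPS by 1.35 ± 0.17 (adjusted p = 0.000122), from 9.89, 10.6 and 6.76 TPM to 2.93, 3.54 and 2.32. It then rose by 0.66 ± 0.17 to 5.15, 5.17 and 5.13 with LPS + Ska (adjusted p = 0.0192). The groups did not overlap, but with the tied columns replaced by the 2 values recovered from them the adjusted p of this rise was 0.0627, and it was 0.0646, 0.0684 and 0.0670 when LPS replicate 5, LPS replicate 7 or LPS + Ska replicate 5 was left out.

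In receptor signalling, all 7 genes were tested. Irak1, a kinase that joins the receptor complex through MyD88, fell with LPS by 1.12 ± 0.09 (adjusted p = 7.71e-06), from 88.4 ± 8.57 to 40.0 ± 1.21 TPM, and was at 39.3 ± 3.73 in LPS + Ska. Irak3, which restrains the pathway, rose with LPS by 0.63 ± 0.11 (adjusted p = 0.000823) and lost the call at 0.52 without DMSO replicate 7. None of the 7 was called from LPS to LPS + Ska, where 9.49% of all tested genes were. Irak2 changed by -0.46 there (adjusted p = 0.00397), inside the fold change limit. Myd88 itself was at 99.9 ± 12.5, 91.9 ± 0.676 and 86.5 ± 2.72 TPM in the DMSO, LPS and LPS + Ska groups and was not called in any comparison.

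Of 12 other sensor genes, 7 were tested and 0 were called from LPS to LPS + Ska, where 9.49% of all tested genes were. Nlrp10 fell with LPS by 0.87 ± 0.13 (adjusted p = 0.00031), and its change from DMSO to LPS + Ska was -0.74. Nlrp1b, a sensor of bacterial proteases, was called only from DMSO to LPS + Ska, at -0.71, and this call and that of Nlrp10 were lost under median-ratio scaling at -0.54 and -0.57. The Nlrp1b call was also lost at -0.57 when LPS + Ska replicate 7 was left out. Aim2, the sensor of cytosolic DNA, was at 57.1 to 60.9 TPM in DMSO, 72.1 to 93.7 in LPS and 63.4 to 69.9 in LPS + Ska and was not called.

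Among 7 regulators of NLRP3 and ion channels, Pstpip1, an adaptor that binds pyrin, fell with LPS by 0.61 ± 0.12 and the potassium channel gene Kcnk6 by 0.59 ± 0.15 (adjusted p = 0.00166 and 0.00642). Both calls sat at the limit and were lost under median-ratio scaling, at -0.52 and -0.51, and without mitochondrial-genome and ribosomal protein genes, at -0.57 and -0.56. Leaving out DMSO replicate 5 ended the Pstpip1 call at -0.49, and leaving out DMSO replicate 6, DMSO replicate 7 or LPS replicate 6 ended that of Kcnk6 at -0.56, -0.45 and -0.55. The kinase gene Nek7, the thioredoxin-binding Txnip and the ATP-gated channel gene P2rx7 were not called in any comparison. With LPS they changed by -0.02, -0.40 and -0.48 (adjusted p = 0.852, 0.0271 and 0.00391). From DMSO to LPS + Ska the changes were -0.06, -0.37 and -0.56 (adjusted p = 0.600, 0.0351 and 0.00146), all inside the fold change limit. The remaining list held caspases, gasdermins and the membrane rupture gene Ninj1, 4 of 7 tested.

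Ninj1 encodes the protein that ruptures the membrane after gasdermin pores have formed. It stood at 211, 208 and 220.4 TPM with DMSO, 93.7, 95.03 and 92.4 with LPS and 146, 134 and 158 with LPS + Ska. The 3 groups did not overlap, and LPS + Ska lay between the others. Ninj1 fell by 1.18 ± 0.06 with LPS (adjusted p = 7.32e-07) and rose by 0.63 ± 0.06 with skatole (adjusted p = 0.00024), a call that was lost at 0.57 without LPS + Ska replicate 7.

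**Figure D4:**
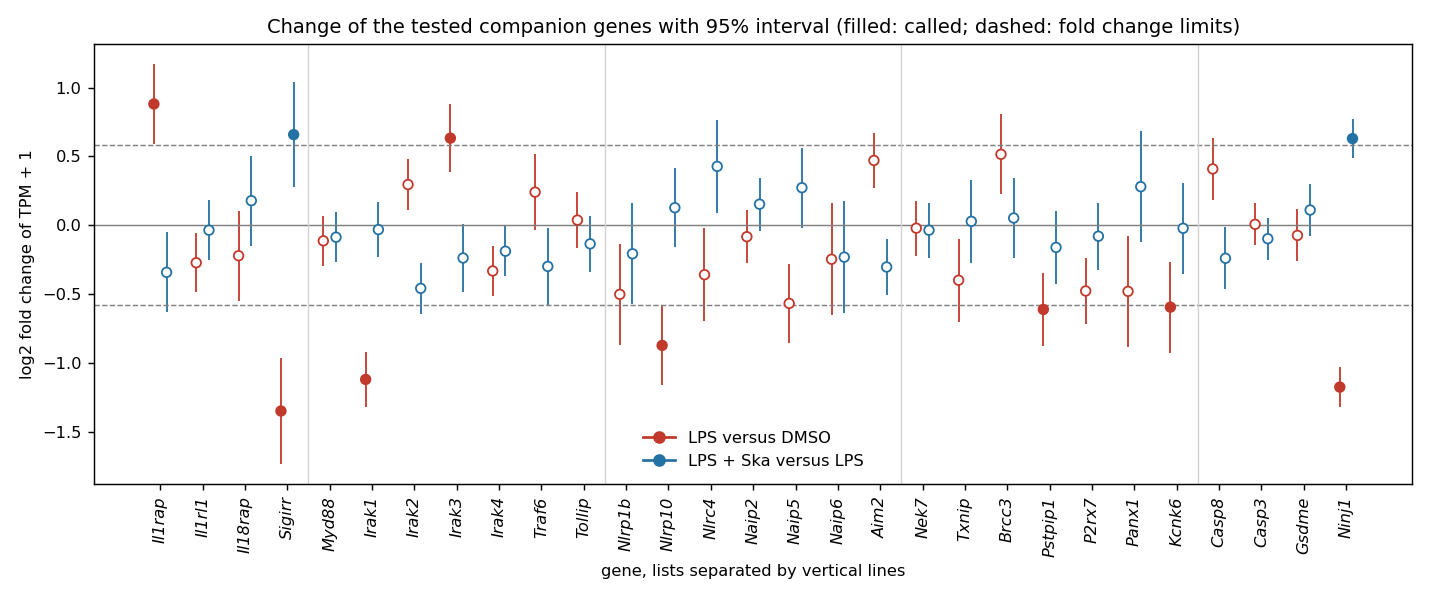
Log2 fold change of TPM + 1 with its 95% interval for the 29 tested genes of the wider pathway, for LPS against DMSO in red and LPS + Ska against LPS in blue, filled where called, with dashed lines at the fold change limits. Sigirr and Ninj1 are the filled blue points, both above 0, and both have a filled red point below 0.

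The genes whose TPM followed that of Il1b most closely over the 9 columns, of 12818 compared by Pearson correlation on log2(TPM + 1), were Nol11 (r = 0.998), Ap1s3 (0.998), Upp1 (0.997), Wdr43 (0.997) and Atp1b3 (0.997). Upp1, a uridine phosphorylase, had group means of 0, 5.17 and 2.58 TPM in DMSO, LPS and LPS + Ska, and Atp1b3, a subunit of the sodium pump, had 432, 877 and 708 TPM. The columns fall into 3 treatment groups with tied replicates, so these values describe the order of groups and carry no test.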

How the data were processed

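The series lists 9 RNA-seq samples of RAW264.7 cells, 3 each treated with DMSO, LPS or LPS + Ska, grouped by the GEO labels. The 3 columns of the LPS and LPS + Ska groups hold at most 2 independent values per gene. The authors deposited TPM values per Ensembl gene; the submitters' processing notes name fastp 0.20.1, HISAT2 2.2.1, StringTie 2.0 and the mouse build mm10, and whether strand was used is not given in the sources used here. Read depth is unknown, so no counting interval was computed. Symbols matched 55141 of 55401 identifiers, and positions came from GENCODE M21 (GRCm38). Log2(TPM + 1) of genes with a mean of at least 1 TPM was fitted over all 9 columns with limma 3.58.1 (lmFit and eBayes with an intensity trend, R 4.3.3), and genes were called at a Benjamini-Hochberg adjusted p under 0.05 with a fold change above 1.5 or below 0.67. The script was tested on simulated data. Alternatives were another pseudocount, filters, scalings, the compared groups alone, no trend, the replicate block, recovered values for tied columns, and leaving out each column. Recovered values are the 2 numbers per gene that have replicate 5 as their mean and the distance from replicate 5 to the other columns as their difference. The members and lists were chosen with earlier results of these data known. All 10 members were named with every column, of the wider pathway those called in at least 1 comparison, and the 5 genes most like Il1b; 1 gene was removed from the wider pathway list and is not reported here. Receptor, signalling, Aim2 and NLRP3 regulator genes named without a call were chosen after their values were seen. Promoter sequences are RefSeq (GRCm38.p6), with a window for 9 of the 10 members. Figures used matplotlib 3.10.9.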

Additional observations from a re-analysis of the deposited data

How the results depend on the processing

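The number of the 10 genes called lay at 6 to 8 with LPS, 3 to 6 from LPS to LPS + Ska and 5 to 6 from DMSO to LPS + Ska over the 19 alternatives. The highest counts came without the fold change limits, and leaving out single columns gave 6, 3 to 4 and 6. Without those limits 7734, 3663 and 8116 genes were called in the 3 comparisons, against 4189, 1216 and 4700 with them. Il18bp, which was not called, changed sign with LPS under median-ratio scaling (0.0244) and lay between -0.106 and 0.0326 when single columns were left out (0.0176 without DMSO replicate 6), and from DMSO to LPS + Ska it was 0.00744 under that scaling. Nlrp3 turned to 0.0563 from DMSO to LPS + Ska under the same scaling. The causes of these changes were not tested. With the mean minimum at 5 TPM, Il18bp was not tested. With the replicate block, 6, 4 and 6 of the 10 genes and 4235, 1198 and 4729 genes in all were called, and no member changed its call. Same-numbered columns of LPS and LPS + Ska deviated from their group means with correlations of 0.384, 0.151 and 0.128, but replicate 5 is the mean of the other two in both groups, so these are not 3 pairs, and against DMSO the correlations lay between -0.032 and 0.0801. The numbers were therefore not taken to pair the samples. The depth behind the TPM values is unknown, which limits what can be said of Il1a and Il1b in DMSO and of Pycard.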

Other observations

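The further values here were picked after they had been seen and were not tested. In the IL-36 branch of the family, Il36a was listed at 0 in all DMSO columns, at 1.21, 1.31 and 1.11 TPM in the LPS columns and at 0.526, 0.675 and 0.376 in the LPS + Ska columns. Il36g was also at 0 in DMSO, but stood at 0.406, 0.356 and 0.456 TPM with LPS and at 1.99, 2.79 and 1.18 with LPS + Ska. The LPS and LPS + Ska columns of these genes did not overlap, with Il36a lower and Il36g higher when skatole was present, at levels close to the limit of the filter.

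Several of the 10 genes overlap a gene on the opposite strand. Il1bos, antisense to Il1b with 25 shared exonic bases, was at 0 in the DMSO columns, at 0.239, 0.246 and 0.232 TPM in the LPS columns and at 0.0227, 0.068 and 0 in the LPS + Ska columns, the order of groups seen for Il1b. Gm14023, which shares 222 exonic bases with Il1a, was at 0.143 to 0.255 TPM in DMSO, 0.163 to 0.382 in LPS and 0.326 to 0.566 in LPS + Ska, and so did not follow Il1a. Bco2, on the strand opposite Il18 with 0 shared exonic bases, was at 4.42 to 5.76 TPM in DMSO, 7.35 to 7.89 in LPS and 3.84 to 4.49 in LPS + Ska. Numa1, which shares 80 exonic bases with Il18bp, was at 61.9 to 74.5 TPM in DMSO, 41.2 to 43.4 in LPS and 32.3 to 32.7 in LPS + Ska, while Il18bp stayed between 1.82 and 2.46 TPM. Without knowing whether strand was used, reads from shared bases cannot be told apart.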
